A study of Mus musculus with 9 samples.

Results

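The comparison described here set messenger RNA of Vcam1KO2 cells, a single-cell clone in which Cas9 had been directed against exon 2 of Vcam1, against that of Vcam1ctrl cells, the control that the sample labels call wild type. Its members are 3 Vcam1KO2 and 3 Vcam1ctrl libraries of 9 in the series, chosen by their genotype labels, and 17672 of 55276 gene symbols were tested. All groups were PPTR cells, a mouse line of intrahepatic cholangiocarcinoma (iCCA) derived from liver cancer organoids with a tamoxifen-dependent Cre recombinase driven by Prom1 (Prom1CreERT2), floxed alleles and a ZsGreen reporter at the Rosa locus, adapted to culture as monolayers in medium with serum. The other 3 libraries came from a second clone, Vcam1KO1, and were used only to estimate the spread between libraries and to ask where Vcam1KO2 stood apart. Libraries of a condition came from different passages. Vcam1KO2 is a single clone, so an effect of the edit cannot be told apart from properties of the founder cell, and the p values measure only the spread between passages of this clone, of the control culture and of Vcam1KO1.

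Vcam1 encodes a cell surface protein of the immunoglobulin superfamily that binds integrin alpha 4 beta 1 on other cells, and it is best known on activated endothelium, where it slows leukocytes. Cholangiocytes, the epithelium of the bile ducts, hold together through E-cadherin and tight junctions and fill their cytoplasm with keratins 7, 8, 18 and 19. In an epithelial-to-mesenchymal transition (EMT) epithelial cells lose such junctions and keratins under repressors of the Snai, Zeb and Twist families and gain matrix and migratory genes. Liver fibroblasts and stellate cells, in contrast, make fibrillar collagens and carry platelet-derived growth factor receptors.

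Vcam1 (GRCm38 chr3:116109949-116129688) was read first. Its level was 248, 220 and 329 CPM in the Vcam1ctrl libraries and 119, 99.4 and 83 CPM in the Vcam1KO2 libraries, where CPM is a gene's count scaled to a common library total and corrected for library composition by TMM factors. The transcript was thus lower in every Vcam1KO2 library but not lost (log2 fold change -1.41, standard error 0.20, edgeR adjusted p = 0.000274), and counts of whole transcripts do not show an edit within exon 2. The authors reported loss of Vcam1 expression in their knockout clones by quantitative RT-PCR and flow cytometry, which were not examined here. Prom1, whose promoter drove the recombinase, was at most 0.175 CPM in any library of these groups.

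Library totals lay between 53415907 and 125223073 counts, so that 3 counts, the limit below which a gene was taken as not detected, corresponded to between 0.024 and 0.0562 CPM. In a principal component analysis of all 9 libraries the first component (68.5% of the variance) separated both clones from Vcam1ctrl and the second (20.6%) separated the clones from each other. Within Vcam1KO2, replicate 3 stood farthest from the other libraries of its group. Distance was taken from the mean log2 level of the other libraries of the same group. It exceeded 2-fold in 8.49% of the tested genes for replicate 3, in 5.45% for replicate 1 and in 4.41% for replicate 2. In Vcam1ctrl it did so in 4.59%, 10.0% and 8.02% for replicates 1 to 3, so that control libraries stood as far apart. Values are therefore given library by library, in the order of replicates 1 to 3, and where leaving out 1 library moved the number of called members of a gene list by over 1.5 times, the count without it is given too.

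The clone differed from the control over much of the transcriptome. Of 17672 genes, 9070 passed an adjusted p of 0.05 (51.3%) in the quasi-likelihood test of edgeR, adjusted by Benjamini and Hochberg's method, 4460 of them higher in Vcam1KO2 cells (25.2%) and 4610 lower (26.1%). Counts of called members in the gene lists below are to be read against these shares. A change of at least 2-fold was reached by 5498 of the 9070 genes, 2446 higher and 3052 lower. Very large changes leaned downward, with 783 genes lower by 32-fold or more and 270 higher. The libraries of the groups did not overlap in 10972 genes (62.1%). The median log2 fold change of all tested genes was 0.0044, so that under this scaling the whole set of genes was centred near 0.

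**Figure D1:**
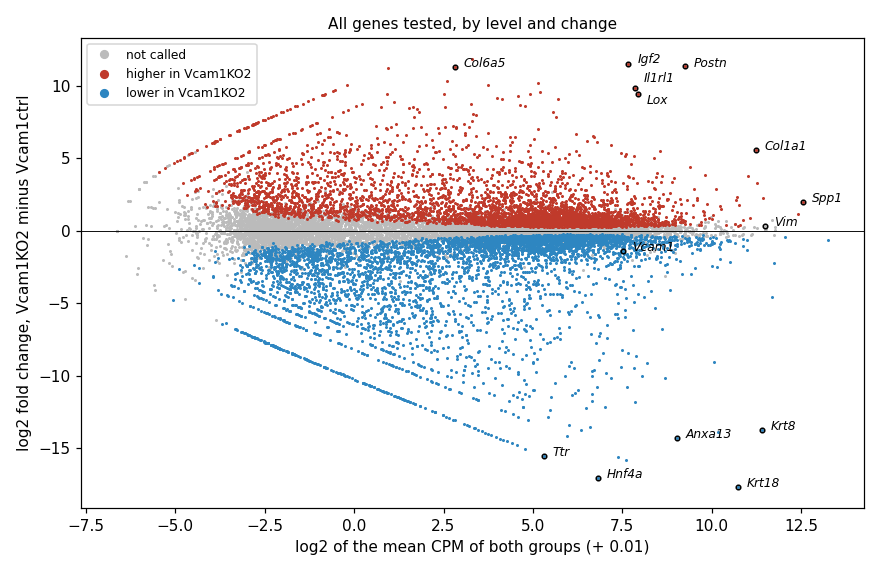
Log2 fold change of Vcam1KO2 over Vcam1ctrl (y axis) against the log2 mean CPM of both groups (x axis) for the 17672 genes tested, with genes of adjusted p under 0.05 coloured red (4460 higher) or blue (4610 lower) and the others grey. Krt18, Krt8 and Hnf4a lie at the lower edge and Igf2 and Postn at the upper one; the parallel streaks at the left and below are genes with 0 or very few counts in one group, whose fitted changes depend on a prior count.

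The epithelial keratins were nearly extinguished. Krt8 and Krt18 encode partner keratins that form the filaments of simple epithelia and lie side by side on chromosome 15. Krt8 was at 5201, 5361 and 5570 CPM in Vcam1ctrl libraries and at 0.497, 0.438 and 0.281 CPM in Vcam1KO2 libraries (log2 fold change -13.70, standard error 0.32, edgeR adjusted p = 1.05e-08). Krt18 went from 3369, 3676 and 3179 CPM to a single count in each Vcam1KO2 library, a level at least 74000-fold lower when set against 3 counts per library. Epcam, an adhesion molecule of bile duct and progenitor epithelium, was at 21.4, 17.4 and 27.2 CPM in Vcam1ctrl and had no count in 2 Vcam1KO2 libraries and 1 count in the other, at least 477-fold lower. The groups did not overlap for any of these genes. In bulk RNA, fewer cells with a transcript and less of it per cell cannot be told apart. The 250 bases before the RefSeq transcription start of these 3 genes (GRCm38.p6, coding strand, 5′ to 3′) are shown as examples. The 3 were picked by hand, and many other genes also fell to below 1 CPM in every library of the clone. A match in all 3 is therefore no measure of its share among the genes that fell. Capitals mark the letters CACCTG or their reverse complement CAGGTG, a form of E-box that Zeb and Snai repressors bind.
Krt8, chr15:102004343-102004592, minus strand: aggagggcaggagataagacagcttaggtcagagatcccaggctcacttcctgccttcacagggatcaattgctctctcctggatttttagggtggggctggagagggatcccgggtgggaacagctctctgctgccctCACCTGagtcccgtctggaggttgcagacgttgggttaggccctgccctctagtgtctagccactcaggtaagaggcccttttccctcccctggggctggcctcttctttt
Krt18, chr15:102027966-102028215, plus strand: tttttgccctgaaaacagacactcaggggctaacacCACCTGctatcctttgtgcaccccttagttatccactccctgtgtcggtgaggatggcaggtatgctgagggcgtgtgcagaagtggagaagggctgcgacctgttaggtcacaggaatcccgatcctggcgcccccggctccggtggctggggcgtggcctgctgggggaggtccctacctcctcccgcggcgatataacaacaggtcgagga
Epcam, chr17:87635729-87635978, plus strand: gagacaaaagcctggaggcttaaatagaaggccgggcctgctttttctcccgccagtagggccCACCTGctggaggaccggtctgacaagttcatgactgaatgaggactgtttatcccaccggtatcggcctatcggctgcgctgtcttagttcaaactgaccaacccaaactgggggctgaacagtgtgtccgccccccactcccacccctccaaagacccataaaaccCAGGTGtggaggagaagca
The match began at -111 in Krt8, at -214 in Krt18 and at -187 and -19 in Epcam, counted from the start site. The same letters, on either strand, occur in 5413 of the 27025 promoters of that table, counted over 250 bases before to 50 after the start. Only 99 of the 132 genes lost in Vcam1KO2 cells, 75.0%, had a promoter in the table, which is too few for a comparison of shares. A match is a description of the sequence and says nothing about binding in these cells.

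Other keratins followed. Krt19 fell from 2129, 2341 and 2406 to 0.103, 0.226 and 0.118 CPM, 0.00651% of the control mean. Krt7 fell from 95.7, 111 and 114 to 0.72, 0.806 and 0.266 CPM. Of 15 keratins tested, 10 were lower and 0 higher, where 26.1% and 25.2% of all genes were. The median log2 fold change of the keratins was -6.03, or -2.73 with the 3 members at or under 3 counts in a whole group set to their bounds. Without replicate 3 of Vcam1KO2 the counts were again 10 lower and 0 higher.

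The genes of cell junctions behaved likewise. Of 32 tested genes of adherens junctions, tight junctions, desmosomes and gap junctions, 29 were lower and 1 was higher, with a median log2 fold change of -4.91 (-3.10 with 8 members at their bounds). Lsr, which marks the corners where 3 cells meet, fell from 244, 252 and 276 to 0.0514, 0.099 and 0.0148 CPM (log2 fold change -12.13, edgeR adjusted p = 2.51e-08). Cldn3, a claudin of tight junctions, was at 110, 133 and 141 CPM in Vcam1ctrl and at most 1 count in Vcam1KO2 libraries, at least 2770-fold lower. Dsc2, a desmosomal cadherin, had no count in Vcam1KO2 libraries and was at least 443-fold lower. The exception was Cldn1, another claudin. It rose from 0.39, 0.148 and 0.177 to 31.7, 28.1 and 20.1 CPM (log2 fold change 6.70, edgeR adjusted p = 5.63e-06), so that tight-junction genes did not all move one way.

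Among 13 epithelial transcription factors and splicing regulators 9 were lower and 4 higher. Esrp1 and Esrp2 are splicing factors that keep epithelial exons in many transcripts. Esrp2 fell from 17.1, 19.4 and 22.6 CPM to at most 3 counts in each Vcam1KO2 library, at least 428-fold lower, and Esrp1 from 7.18, 4.85 and 9.46 CPM to no count, at least 156-fold lower.

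**Figure D2:**
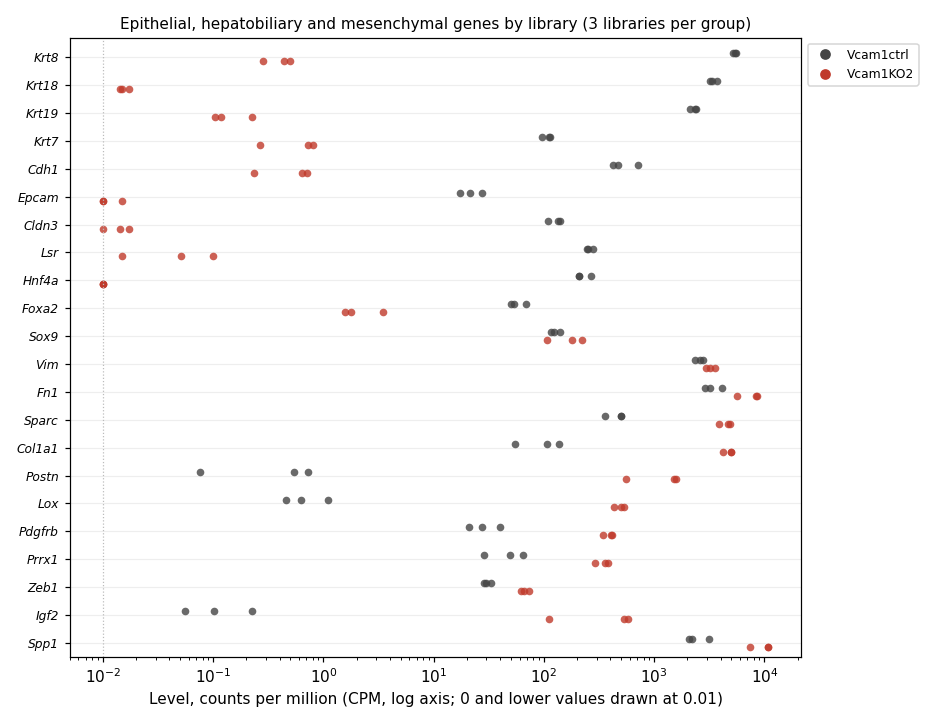
Level of 22 epithelial, hepatobiliary and mesenchymal genes in each library (x axis, CPM on a log scale, with 0 and lower values drawn at 0.01), 3 grey points for Vcam1ctrl and 3 red points for Vcam1KO2. The epithelial genes at the top separate by several orders of magnitude, Sox9 and Vim lie close together in both groups, and Postn, Lox and Igf2 separate in the other direction.

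Hepatobiliary transcription factors fell more often than they rose. Of 22 hepatobiliary factors tested 12 were lower and 4 higher, with a median log2 fold change of -0.90. The median was -2.02 without replicate 2 and -1.44 without replicate 3 of Vcam1KO2, with 14 lower and 4 higher in the latter case, and -0.33 over the genes with a mean of at least 1 CPM. Hnf4a, a factor that maintains hepatic epithelium, was at 208, 207 and 264 CPM in Vcam1ctrl libraries and had no count in any Vcam1KO2 library. Foxa2, a pioneer factor of endoderm, fell from 53.3, 50.2 and 68.5 to 1.56, 1.8 and 3.46 CPM (log2 fold change -4.65, edgeR adjusted p = 5.1e-06), and it was lower still in Vcam1KO1 libraries at 0.135, 0.0522 and 0.0639 CPM (difference between clones 4.79 on the log2 scale, edgeR adjusted p = 6.04e-05). Its relative Foxa1 went the other way. Foxa1 rose from 0.598, 0.517 and 0.746 to 12.4, 12.9 and 12 CPM (log2 fold change 4.32, edgeR adjusted p = 3.22e-07). Tbx3, a T-box factor of the liver bud, rose from 0.119, 0.0738 and 0.24 to 6.01, 5.74 and 8.21 CPM.

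Not all biliary markers passed the test. Sox9, which marks bile duct cells, was at 140, 115 and 124 CPM in Vcam1ctrl and 223, 179 and 107 CPM in Vcam1KO2 libraries, and the groups overlapped (log2 fold change 0.42, edgeR adjusted p = 0.372). Of the 8 markers fixed for bile duct cells, 4 fell (Krt7, Krt19, Epcam and Cftr), Spp1 rose, 2 did not pass the test and Prom1 was too low to test. Cftr, the chloride channel of bile duct cells, went from 7.45, 9.17 and 9.79 CPM to at most 1 count. Pkhd1, which encodes fibrocystin of the biliary primary cilium, rose from 27.1, 18.9 and 45 to 110, 107 and 59.6 CPM (log2 fold change 1.60, edgeR adjusted p = 0.00479). In the wider list of 25 biliary and progenitor genes 13 were lower and 5 higher. Read against the label of cholangiocarcinoma cells, the defining biliary keratins were thus abundant in the control and lower in every library of the clone.

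Of 21 tested hepatocyte products 10 were lower and 1 higher. Apob, the protein of very low density lipoproteins, fell from 445, 380 and 568 to 0.137, 0.113 and 0.133 CPM (log2 fold change -11.81, edgeR adjusted p = 1.69e-07). Ttr, a carrier of thyroid hormone, was at 64.5, 35.4 and 138 CPM in Vcam1ctrl and had no count in Vcam1KO2 libraries, at least 1720-fold lower. Alb was already low in the control at 3.9, 2.68 and 23.9 CPM and fell to 0.394, 0.396 and 0.177 CPM. The gene that rose was Afp, the albumin relative of fetal liver. Its level was 0.0717, 0.166 and 0.0632 CPM in Vcam1ctrl and 9.3, 9.9 and 11.4 CPM in Vcam1KO2 libraries (log2 fold change 6.75, edgeR adjusted p = 1.56e-05).

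In all, 132 genes with a mean of at least 5 CPM in Vcam1ctrl libraries had 3 counts or fewer in every Vcam1KO2 library, and 5 genes showed the reverse (12 without replicate 1 of Vcam1ctrl). The lost genes were mostly protein-coding (128 of 132), and 70 of them were at 3 counts or fewer in every Vcam1KO1 library too. The bounds on their change ran from 109-fold to the value of Krt18, with a median of 334-fold. F2rl1, the protease-activated receptor 2, was at 366, 391 and 412 CPM in Vcam1ctrl libraries and had 1 count in all 3 Vcam1KO2 libraries together. Wfdc2, a secreted protein of ducts and a serum marker of epithelial cancers, was at 280, 325 and 388 CPM and likewise at 1 count. Mal2, which carries proteins to the apical membrane, was at 47, 60.3 and 57.7 CPM in the control and had no count in the clone. Anxa13, an annexin of epithelia, just missed this definition of loss and fell from 985, 956 and 1200 to 0.0685, 0.0424 and 0.0444 CPM. Eps8l3, Spats2l, Clrn3, Rnf39 and Calml4, which the naming rule drew by fitted fold change, had no count in any Vcam1KO2 library. That fitted value depends on a prior count where a group has no reads, and their bounds, from 737-fold for Calml4 to 1020-fold for Eps8l3, were below those of other lost genes such as Grb10, with 4230-fold. Calml4 is part of the complex that links microvilli of brush borders. Runs of 3 neighbouring tested coding genes were at or under 3 counts in the clone in 5 places, counting genes with at least 1 CPM in the control, among them the Serpina1 genes on chromosome 12 (chr12:103853589-103958975), a family of near-identical copies whose reads the estimation may have divided among them, and Spint1 with its neighbours on chromosome 2 (chr2:119218119-119271272).

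Adhesion molecules of the control fell as well. Bcam, a laminin receptor of the immunoglobulin superfamily, fell from 168, 176 and 255 to 0.154, 0.269 and 0.311 CPM. Cadm3 and Cdh11, a nectin-like molecule and a cadherin otherwise known from mesenchyme, were at least 1250-fold and 662-fold lower. Icam1, the closest counterpart of Vcam1 in leukocyte adhesion, fell from 65.5, 39.2 and 61.9 to 0.6, 0.467 and 0.311 CPM (log2 fold change -6.92, edgeR adjusted p = 3.51e-06). Of 28 immunoglobulin and cadherin adhesion molecules tested, Vcam1 itself included, 16 were lower and 2 higher, with a median log2 fold change of -1.44. L1cam, a neural adhesion molecule, was one of those 2 and rose from 21.4, 17.7 and 29.8 to 82.2, 76.6 and 48.6 CPM. N-cadherin, encoded by Cdh2, was at 51, 51.4 and 57.5 CPM in the clone and 61.5, 55.5 and 59.9 CPM in the control and did not pass the test (log2 fold change -0.14, edgeR adjusted p = 0.27).

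**Figure D3:**
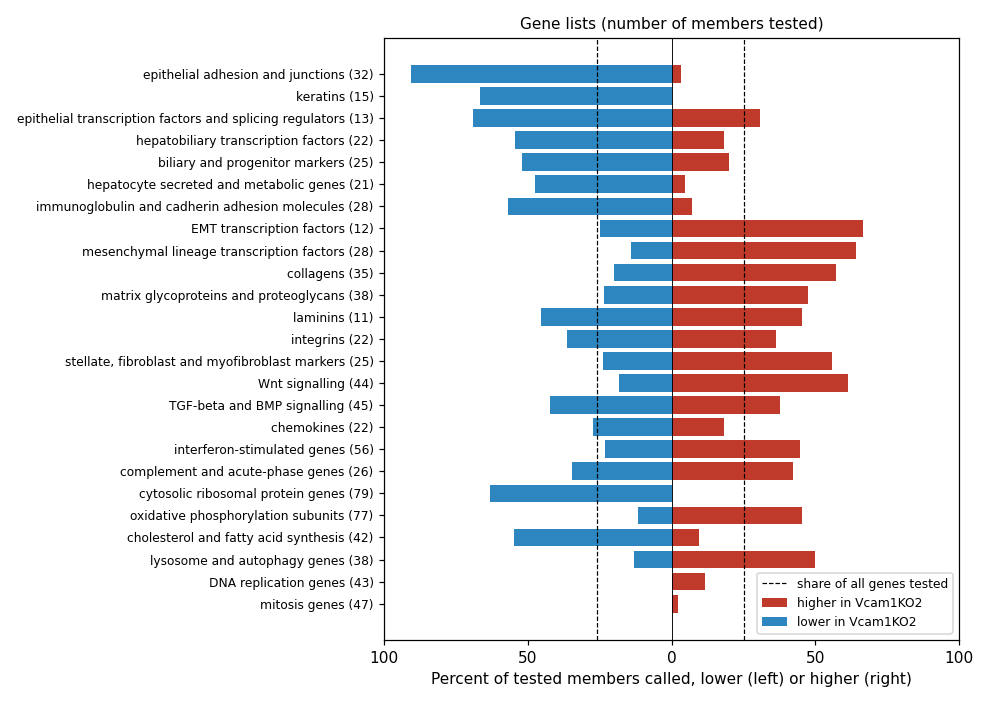
Percent of the tested members of 25 gene lists that were called lower (blue, to the left) or higher (red, to the right) in Vcam1KO2 cells, with the number tested in parentheses and dashed lines at the shares among all tested genes (26.1% lower, 25.2% higher). Among the lists drawn, junction genes, epithelial factors and keratins extend farthest to the left, and EMT factors, mesenchymal factors and Wnt genes farthest to the right.

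The transcription factors known to drive EMT changed in both directions. Of 12 tested 8 were higher and 3 lower, with a median log2 fold change of 1.23. Prrx1, a homeobox factor of limb and liver mesenchyme, rose from 49.1, 64.8 and 28.3 to 384, 360 and 293 CPM (log2 fold change 2.87, edgeR adjusted p = 2.33e-05). Twist2 rose from 2.91, 4.26 and 2.29 to 19.8, 23.8 and 25.6 CPM, while Twist1 fell from 3.91, 4.13 and 2.28 CPM to no count, at least 74.7-fold lower. The zinc finger repressors Zeb1 and Zeb2 rose moderately, Zeb1 from 32.8, 29.9 and 28.6 to 72.8, 65.2 and 62.5 CPM and Zeb2 from 22.3, 20.3 and 14.5 to 54.6, 48.9 and 39.6 CPM. Snai1 rose from 10.2, 27 and 9.13 to 29.3, 35.7 and 62.5 CPM (log2 fold change 1.47, edgeR adjusted p = 0.0324) and Snai2 fell from 11.4, 25.2 and 10.2 to 7.92, 8.13 and 6.46 CPM (log2 fold change -1.06, edgeR adjusted p = 0.0375), and these calls were lost without replicate 3 of Vcam1KO2 (edgeR adjusted p = 0.105 and 0.102) and without several other libraries. Foxc1 rose 8.81-fold.

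Factors of mesenchymal lineages rose more often than they fell. Of 28 tested 18 were higher and 4 lower, with a median of 1.15 on the log2 scale, and 17 and 3 without replicate 3 of Vcam1KO2. Eya1, a coactivator in kidney, ear and muscle development, rose from 0.0638, 0.0369 and 0.0379 to 7.81, 8.07 and 5.95 CPM (log2 fold change 7.17, edgeR adjusted p = 1.49e-05). Foxf1, a factor of gut and liver mesenchyme, rose from 0.55, 0.738 and 0.379 to 12.5, 12.4 and 10.4 CPM. Runx2, the master factor of bone, rose from 22.5, 21.4 and 23 to 57, 48.4 and 45.2 CPM. Sox6 fell from 7.02, 5.2 and 8.9 to 0.6, 0.566 and 0.444 CPM, and in Vcam1KO1 libraries it was at 7.28, 4.46 and 14.6 CPM (difference between clones -4.03, edgeR adjusted p = 0.000204).

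Collagens rose with them. Of 35 collagen chains tested 20 were higher and 7 lower, with a median log2 fold change of 1.33. Col1a1, a chain of the main collagen of scar, rose from 107, 136 and 55 to 5008, 4998 and 4199 CPM (log2 fold change 5.57, standard error 0.34, edgeR adjusted p = 1.47e-06). Its partner Col1a2 was at 570, 395 and 258 CPM in the control and rose to 1597, 1582 and 1197 CPM. Col3a1 rose from 33.8, 50.4 and 18.4 to 318, 330 and 359 CPM and Col12a1 from 12.6, 11.5 and 13.7 to 531, 499 and 305 CPM. The rise of Col3a1 was smaller than in Vcam1KO1 libraries, which were at 1527, 1138 and 2361 CPM (edgeR adjusted p = 0.00134 between clones). Col4a3, Col4a4 and Col15a1 are chains of basement membranes. Col4a3 fell from 56.9, 38.7 and 65 to 0.771, 0.665 and 0.0592 CPM, Col4a4 from 42.5, 31.2 and 39.8 to 0.805, 0.735 and 0.163 CPM and Col15a1 from 255, 261 and 187 to 1.46, 1.55 and 2.29 CPM.

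Of 38 matrix glycoproteins and proteoglycans 18 were higher and 9 lower. Postn, which encodes periostin and is induced in scar and tumour stroma, went from 0.725, 0.535 and 0.0759 to 1580, 1499 and 550 CPM (log2 fold change 11.37, edgeR adjusted p = 7.11e-06). Sparc, a collagen-binding protein, rose from 503, 495 and 356 to 4706, 4912 and 3880 CPM. Fn1, which encodes fibronectin and was abundant already, rose from 4137, 2868 and 3224 to 8555, 8291 and 5614 CPM, and Spp1, which encodes osteopontin, from 2066, 3133 and 2223 to 10800, 10660 and 7459 CPM. Lox, the enzyme that crosslinks collagen and elastin, rose from 0.629, 1.11 and 0.455 to 533, 497 and 432 CPM (log2 fold change 9.42, edgeR adjusted p = 1.68e-07). Its substrate elastin moved the other way: Eln fell from 200, 91.6 and 62.7 to 0.0685, 0.141 and 0.118 CPM (log2 fold change -10.03, edgeR adjusted p = 1.66e-06). Replicate 3 was below both other Vcam1KO2 libraries by more than 2-fold in 9 of the 38 genes, Postn among them, and without it 19 were higher and 7 lower. Ogn, a small proteoglycan, rose from 0.502, 0.424 and 0.0379 to 128, 113 and 42.6 CPM. Dcn, another of the same family, was at 60.2, 105 and 58.3 CPM in Vcam1ctrl and 111, 113 and 51.7 CPM in Vcam1KO2 libraries and did not pass (log2 fold change 0.30, edgeR adjusted p = 0.655), whereas in Vcam1KO1 libraries it was at 2.16, 2.52 and 8.35 CPM (difference between clones 4.41, edgeR adjusted p = 0.000681).

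The laminins split. Of 11 tested 5 were higher and 5 lower. Lamb3, a chain of laminin-332 that anchors epithelium, fell from 255, 272 and 279 to 2.02, 2.45 and 4.38 CPM. Lama5 fell from 1200, 776 and 1650 to 186, 172 and 102 CPM. Lama4 and Lamb1, chains found in vessel and mesenchymal basement membranes, rose from 20.9, 17.5 and 11.6 to 415, 428 and 393 CPM and from 211, 163 and 239 to 873, 859 and 677 CPM. Itgb4, the beta chain of the laminin-332 receptor in hemidesmosomes, also fell from 697, 486 and 1128 to 6.97, 8.12 and 6.15 CPM (log2 fold change -6.76, edgeR adjusted p = 9.3e-07).

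In total 8 of 22 integrins were higher and 8 lower. Itga2 and Itga3, collagen and laminin receptor chains of epithelium, fell to 2.27% and 18% of their control means. Itga9 rose from 0.136, 0.0554 and 0.215 to 58.3, 60.6 and 45 CPM (log2 fold change 8.58, edgeR adjusted p = 1.69e-07), Itgb8 from 0.207, 0.314 and 0.278 to 7.59, 5.98 and 4.41 CPM and Itgb2, the common beta chain of leukocyte integrins, from 1.4, 1.16 and 0.62 to 17.8, 19.2 and 19.9 CPM. Itgb2 did not pass the test in Vcam1KO1 cells (1.81, 1.24 and 0.958 CPM, edgeR adjusted p = 0.4), and the clones differed (edgeR adjusted p = 5.09e-05). Among the integrins that bind Vcam1 are pairs of the Itgb1 chain with that of Itga4, the best-known partner, or of Itga9. Neither Itga4 nor Itgb1 was called. Itga4 was at 0.446, 0.517 and 0.228 CPM in the control and 0.514, 0.24 and 0.281 CPM in the clone. Itgb1 was at 562, 555 and 582 CPM and 613, 594 and 476 CPM.

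Matrix proteases and their inhibitors were higher in 19 and lower in 10 of 40 genes. Mmp2, a gelatinase, rose from 107, 56.2 and 63.7 to 671, 682 and 419 CPM, and Adamts2, which trims procollagens, from 8.04, 9.43 and 5.13 to 174, 179 and 125 CPM. Timp1, a metalloprotease inhibitor, rose 4.53-fold. Tmprss2, a membrane serine protease of epithelium, went from 38.4, 30.3 and 73.6 CPM to at most 2 counts and the inhibitor Spint1 from 6.42, 4.39 and 8.66 CPM to none.

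Markers of fibroblasts rose in part. The 10 fibroblast and stellate cell markers summed to between 413 and 802 CPM in Vcam1ctrl and between 5860 and 7210 CPM in Vcam1KO2 libraries, with 5 of 7 tested members higher and 0 lower. Most of these sums came from the collagen genes Col1a1 and Col1a2, whose levels are given above. Pdgfrb rose from 27.7, 39.7 and 20.9 to 406, 410 and 342 CPM (log2 fold change 3.71, edgeR adjusted p = 3.23e-06) and Acta2, which encodes smooth muscle actin, from 0.9, 3.06 and 0.19 to 6.31, 6.07 and 9.95 CPM (log2 fold change 2.48, edgeR adjusted p = 0.0299). The call for Acta2 was lost without replicate 3 of Vcam1KO2 and without replicate 1 of Vcam1ctrl, among others (edgeR adjusted p = 0.0725 and 0.104). Lum and Lrat, defining markers of fibroblasts and stellate cells, were at most 1 count in every library of both groups, and Thy1 was at most 0.12 CPM. In the wider list of 25 fibroblast and myofibroblast genes 14 were higher and 6 lower. Vim, which encodes the intermediate filament of mesenchymal cells, was at 2604, 2361 and 2785 CPM in Vcam1ctrl and 2940, 3180 and 3531 CPM in Vcam1KO2 libraries, without overlap, and did not pass the test (log2 fold change 0.32, edgeR adjusted p = 0.194). It passed without replicate 3 of Vcam1KO1 (edgeR adjusted p = 0.0334). S100a4 rose 12.4-fold, while Cd34, a marker of blood progenitors, endothelium and some fibroblasts, fell from 267, 302 and 301 to 0.206, 0.283 and 0.266 CPM. A short set of 5 endothelial markers summed to at most 2.43 CPM and one of 5 haematopoietic markers to at most 8.91 CPM in any library of either group. Longer lists held more reads. A list of 20 endothelial genes summed to between 82.1 and 131 CPM in Vcam1ctrl and between 76.6 and 89.8 CPM in Vcam1KO2 libraries, with 3 of 10 tested higher and 2 lower. A list of 26 haematopoietic genes summed to between 120 and 186 CPM in Vcam1ctrl and between 50.7 and 54.0 CPM in Vcam1KO2 libraries, with 8 of 11 tested lower and 1 higher. A single member, Cd14, made up most of these sums, at 100, 132 and 157 CPM in Vcam1ctrl and 39, 42.6 and 42.8 CPM in Vcam1KO2 libraries. Over the genes with a mean of at least 1 CPM, 3 members of that list passed in all. The muscle factors Myod1 and Myog, the neural crest factor Sox10 and the myeloid adaptor Tyrobp had no count. Of the other sets, the 4 mesothelial markers split, with Wt1 rising from 0.231, 0.351 and 0.0885 to 8.72, 8.82 and 10.7 CPM and Msln falling to at most 0.0887 CPM. The part of other cell types in these results was not tested.

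The largest increases did not belong to a single function. St8sia2, the enzyme that adds polysialic acid to adhesion molecules, had at most 1 count in any Vcam1ctrl library and stood at 19.4, 19.7 and 20.2 CPM in Vcam1KO2 libraries, at least 506-fold higher. The growth factor Igf2, silent in most adult tissues outside the brain, went from 0.223, 0.0554 and 0.101 to 579, 527 and 112 CPM (log2 fold change 11.46, edgeR adjusted p = 2.38e-05). Its relative Igf1 rose from 0.0398, 0.0369 and 0.152 to 58.2, 55.1 and 30.3 CPM. Il1rl1, the receptor of interleukin 33, rose from 0.406, 0.997 and 0.215 to 442, 431 and 516 CPM (log2 fold change 9.82, edgeR adjusted p = 1.56e-05), and Ptx3, a soluble pattern receptor, from 0.112, 0.185 and 0.0126 to 72, 66.5 and 80.9 CPM. Gpnmb, a glycoprotein of lysosomes and melanosomes, rose from 0.0478, 0.0369 and 0.0885 to 90.3, 90 and 31.2 CPM, and Adamtsl2, a secreted matrix protein, from 0.0319, 0 and 0 to 14.1, 14 and 6.15 CPM. Replicate 3 was the lowest Vcam1KO2 library for Igf2, Igf1, Gpnmb and Adamtsl2, and it lay above all control libraries for each of them. Col6a5, a collagen VI chain, and Tmem255a were at most 2 counts in the control and at 12.1, 12.9 and 17.1 and 12.5, 12.8 and 10.6 CPM in the clone, at least 360-fold and 307-fold higher. The genes gained altogether were St8sia2, Col6a5, Tmem255a, Tshz3 and, named here after its values were seen, Myh1, a myosin of skeletal muscle, with a mean of 5.72 ± 3.26 CPM (SD, n = 3). Without replicate 1 of Vcam1ctrl, the deepest library, 12 genes would count as gained.

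Among genes with the highest counts, Lgals1, which encodes galectin-1, rose from 969, 1088 and 838 to 3868, 4881 and 4912 CPM (log2 fold change 2.24, edgeR adjusted p = 3.7e-05). A long noncoding RNA without a name other than AC160336.1 (GRCm38 chr14:44544055-44637201) fell from 5715, 6953 and 6217 to 319, 270 and 191 CPM (log2 fold change -4.60, edgeR adjusted p = 1.11e-06). Grip2, a scaffold protein of synapses, fell from 7002, 3477 and 6571 to 618, 1450 and 1612 CPM. It was at 8728, 6524 and 7070 CPM in Vcam1KO1 libraries, so that this drop was found in Vcam1KO2 cells alone of the clones (difference between clones -2.60, edgeR adjusted p = 0.000931).

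Wnt genes were higher in 27 and lower in 8 of 44 members, with a median log2 fold change of 1.38. The median in Vcam1KO1 cells was 0.301, and 32 of the 44 genes differed between the clones, where 38.6% of all genes did. Axin2, a direct target and inhibitor of beta-catenin signalling, rose from 0.948, 0.867 and 0.987 to 6, 6.9 and 12.6 CPM in Vcam1KO2 cells (log2 fold change 3.18, edgeR adjusted p = 2.68e-05) and was at 0.674, 0.668 and 0.559 CPM in Vcam1KO1 cells (edgeR adjusted p = 0.139). Of the ligands and enhancers, Wnt10b rose from 0.0877, 0.111 and 0.114 to 13.7, 11.4 and 17.9 CPM and Rspo3, an R-spondin that strengthens Wnt signals, from 0.119, 0.148 and 0.0759 to 8.29, 7.61 and 10.6 CPM. Rspo3 stayed at 0.0449, 0.073 and 0.112 CPM in Vcam1KO1 libraries. The R-spondin receptor and stem cell marker Lgr5 rose from 0.00797, 0.0738 and 0.0126 to 25.3, 22.6 and 32.1 CPM (log2 fold change 10.02, edgeR adjusted p = 0.000117). The related receptor Lgr4 fell from 39.8, 37.5 and 50.6 to 21.8, 20.1 and 18.1 CPM. The nuclear factor Lef1 rose from 0.414, 0.369 and 0.291 to 4.39, 4.51 and 4.92 CPM.

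TGF-beta and BMP genes split, with 17 higher and 19 lower of 45. Among ligands Tgfb3 rose from 3.95, 4.93 and 2.98 to 60.1, 64 and 62 CPM (log2 fold change 3.98, edgeR adjusted p = 2.83e-07) and Inhbb, an activin chain, 14.3-fold, while Bmp7, which opposes TGF-beta in epithelium, fell from 9.69, 4.63 and 12 to 0.189, 0.17 and 0.074 CPM. Among receptors Tgfbr2 rose 1.64-fold and Acvrl1 fell to 5.37% of its control mean. Fstl1, a secreted modulator of BMP signals, rose from 22, 24.3 and 13.6 to 772, 754 and 433 CPM (log2 fold change 5.03, edgeR adjusted p = 1.36e-06). In the Notch pathway 6 of 22 genes were higher and 8 lower. The ligand Jag1, which patterns bile ducts, fell from 387, 397 and 465 to 98.4, 83 and 51.3 CPM, the target Nrarp from 25.1, 32.5 and 24.1 CPM to at most 2 counts, and the mural cell receptor Notch3 rose from 15.4, 22 and 18.2 to 79.8, 75.8 and 66.3 CPM. Notch3 was at 23.1, 19.7 and 18.6 CPM in Vcam1KO1 libraries (edgeR adjusted p = 0.442 against control).

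Receptor tyrosine kinases were higher in 12 and lower in 13 of 35 genes. Egfr fell from 251, 238 and 268 to 60, 56.7 and 51.8 CPM, its partner Erbb3 from 20.9, 14.5 and 29.3 to 0.206, 0.198 and 0.148 CPM, and Fgfr4, the FGF receptor through which bile acid synthesis is restrained in liver, from 14.7, 27.3 and 18.6 CPM to at most 1 count. Flt4, the receptor of lymphatic vessels, fell from 90.3, 53.4 and 122 to 0.634, 0.382 and 0.311 CPM. Fgfr1 rose from 31.6, 28 and 19.3 to 267, 265 and 218 CPM (log2 fold change 3.25, edgeR adjusted p = 7.7e-06). Axl, a receptor often raised in EMT, was at 377, 289 and 455 and 409, 404 and 346 CPM and did not pass. Of 48 growth factor ligands 17 were higher and 18 lower. The EGFR ligand Areg fell from 351, 607 and 367 to 14.7, 15 and 13.8 CPM and was far lower in Vcam1KO1 libraries at 0.0749, 0.24 and 0.016 CPM (difference between clones 6.85, edgeR adjusted p = 2.25e-05). Gdnf, a ligand of the RET receptor, rose from 3.92, 2.47 and 1.78 to 118, 75.6 and 28.2 CPM in Vcam1KO2 cells and was at 3.58, 7.5 and 4.98 CPM in Vcam1KO1 cells.

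Ccl2, Ccl7 and Ccl8, chemokines that attract monocytes, rose. Ccl2 went from 430, 83.9 and 357 to 1631, 1347 and 782 CPM (log2 fold change 2.11, edgeR adjusted p = 0.0127), although a control library was low and replicate 3 of the clone was the lowest of its group. Ccl7 rose from 14.4, 5.7 and 10.5 to 450, 378 and 288 CPM (log2 fold change 5.18, edgeR adjusted p = 4.7e-05) and Ccl8 from 0.175, 0.203 and 0.24 to 5.5, 6.48 and 6.67 CPM. In Vcam1KO1 libraries they stood at 89.2, 197 and 126 CPM for Ccl2, 48, 86.5 and 25.8 CPM for Ccl7 and 0.15, 0.0522 and 0.0319 CPM for Ccl8, below Vcam1KO2 in each case (edgeR adjusted p = 0.0033, 0.00199 and 1.6e-05 between clones). Ccl20, which attracts cells through CCR6, fell from 73.8, 64.1 and 76.3 to 10, 5.23 and 0.503 CPM. Cxcl12 rose from 0.295, 0.185 and 0.0759 to 115, 114 and 83.4 CPM, less than in Vcam1KO1 cells (1288, 1307 and 1580 CPM, edgeR adjusted p = 2.42e-05 between clones). Of all 22 chemokines tested 4 were higher and 6 lower, close to the shares of all genes.

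Complement and acute-phase genes were higher in 11 and lower in 9 of 26. C3, the central complement protein, rose from 365, 195 and 279 to 4636, 4617 and 2259 CPM (log2 fold change 3.78, edgeR adjusted p = 0.00018). Haptoglobin, encoded by Hp, rose from 0.574, 0.332 and 0.683 to 79.5, 84.6 and 45.5 CPM while lipocalin 2, encoded by Lcn2, fell from 111, 42.8 and 48.5 to 1.08, 1.23 and 0.74 CPM. Among 56 interferon-stimulated genes 25 were higher and 13 lower. Gbp3, a guanylate-binding protein, rose from 2.53, 1.55 and 2.23 to 39.3, 40.9 and 34.8 CPM and Oasl2 from 1.73, 1.55 and 2.04 to 11.3, 11.5 and 10 CPM, whereas its relative Oasl1 fell from 29.5, 38.2 and 37.2 to 0.154, 0.212 and 0.163 CPM (log2 fold change -7.61, edgeR adjusted p = 1.27e-07). Gbp and Oas genes have close copies, so reads may have been divided among them.

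Few proliferation genes passed the test. The median log2 fold change was 0.79 over the mitosis genes and 0.47 over the DNA replication genes. Over the alternatives these medians ran from 0.52 to 1.26 and from 0.12 to 0.64. The summed levels of the mitosis genes overlapped, at 1667 to 3610 CPM in Vcam1ctrl and 3209 to 5638 CPM in Vcam1KO2 libraries. Of 47 mitosis genes 1 was higher and 0 lower, and of 43 DNA replication genes 5 were higher and 0 lower. Both counts depended on the libraries used: without replicate 3 of Vcam1KO1 20 mitosis genes passed, and in a fit on the 6 libraries of this comparison alone 15 DNA replication genes did. Without replicate 3 of Vcam1KO1 the latter number was 15 too, and it was 3 without replicate 1 or without replicate 3 of Vcam1ctrl, where no mitosis gene passed. Without replicate 3 of Vcam1KO2 no mitosis gene passed, and 3 DNA replication genes were higher and 1 lower. Nuf2, a kinetochore gene, was the mitosis gene that passed, at 10.2, 18.1 and 8.17 CPM in the control and 45.4, 49.9 and 104 CPM in the clone. Replicate 3 was its highest clone library, and without it the edgeR adjusted p was 0.0713. Of 19 cyclin, CDK and CDK inhibitor genes 6 were higher and 7 lower, and 8 passed in all without replicate 3 of Vcam1ctrl. Ccnd1 fell from 1175, 1185 and 1103 to 453, 496 and 465 CPM (log2 fold change -1.29, edgeR adjusted p = 0.000218) and Ccnd2 from 192, 190 and 222 to 85.8, 86.2 and 59.1 CPM. In Vcam1KO1 cells Ccnd2 rose instead, to 359, 396 and 265 CPM, and the clones differed (edgeR adjusted p = 5.95e-05). Cdkn1a, which encodes the CDK inhibitor p21, fell from 373, 392 and 361 to 166, 167 and 188 CPM. Cdkn2a had no count in any library.

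In central metabolism, of 38 glycolysis genes 6 were higher and 11 lower, 44.7% in all, where 51.3% of all tested genes passed. The glucose transporter Slc2a1 fell from 697, 784 and 791 to 109, 115 and 92 CPM (log2 fold change -2.85, edgeR adjusted p = 5.7e-07), and the lactate exporter Slc16a3 from 231, 208 and 304 to 0.428, 0.65 and 1.08 CPM (log2 fold change -8.41, edgeR adjusted p = 2.04e-05). Aldoc fell from 74.2, 69.2 and 90.3 to 0.257, 0.481 and 0.547 CPM. Ldhb, the lactate dehydrogenase chain that favours pyruvate, rose from 3.45, 2.33 and 1.23 to 65.2, 69.9 and 41.6 CPM, and Pdk4, which holds back pyruvate oxidation, from 1.36, 0.148 and 0.683 to 11.8, 11.7 and 18.2 CPM.

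Cholesterol and fatty acid synthesis was lower in 23 of 42 genes and higher in 4. Tm7sf2, a sterol reductase of cholesterol synthesis, fell from 13.7, 13.8 and 18.8 to 3.63, 3.54 and 2.44 CPM (log2 fold change -2.27, edgeR adjusted p = 0.00026). In Vcam1KO1 cells it stood at 4.36, 5.08 and 9.4 CPM (difference between clones -0.97, edgeR adjusted p = 0.0326). The cholesterol exporter Abca1 rose from 21.5, 12.1 and 11.1 to 139, 124 and 149 CPM (log2 fold change 3.21, edgeR adjusted p = 6.34e-06). Plin4, a lipid droplet coat protein, rose from 0.0319, 0.0554 and 0.164 to 12.8, 13.1 and 8.51 CPM, and in Vcam1KO1 libraries it reached 397, 410 and 501 CPM. Of 25 retinoid and steroid hormone genes 10 were lower and 6 higher. Rbp4, the retinol carrier, fell from 318, 523 and 369 to 1.49, 1.61 and 0.459 CPM. Aldh1a1 and Aldh1a3, which make retinoic acid, fell to 0.531, 0.368 and 0.296 CPM and 0.308, 0.283 and 0.355 CPM from 79.6, 52 and 119 CPM and 23.9, 34.9 and 46.6 CPM, while the vitamin D receptor gene Vdr rose from 10.8, 6.61 and 13.8 to 94.7, 95.6 and 70.6 CPM.

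Lysosome and autophagy genes were higher in 19 and lower in 5 of 38. Ctsb, a lysosomal cysteine protease, rose from 553, 530 and 627 to 3015, 3178 and 2211 CPM (log2 fold change 2.30, edgeR adjusted p = 7.99e-05) and Lamp2, a protein of the lysosomal membrane, from 130, 116 and 126 to 620, 537 and 400 CPM. Genes of the NRF2 and glutathione system were lower in 17 and higher in 10 of 42. Nqo1, the quinone reductase that is its standard target, fell from 1.16, 0.867 and 3.62 to 0.0171, 0.0141 and 0.0887 CPM (log2 fold change -5.48, edgeR adjusted p = 0.000369).

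Ribosomal protein genes were lower as a group by small amounts. Of 79 tested 50 were lower and 0 higher, with a median log2 fold change of -0.56, and 48 were lower and 1 higher without replicate 3 of Vcam1KO2. Rpl22 fell from 517, 423 and 485 to 124, 139 and 124 CPM (log2 fold change -1.88, edgeR adjusted p = 3.2e-06). It lies on chromosome 4, which holds 5 of the 79, all of them lower, with a median of -1.30. On the other chromosomes 45 of 74 were lower and 0 higher, with a median of -0.53. Ribosomal protein genes have many processed copies in the genome, so their estimated counts are less certain than those of single-copy genes. Subunits of oxidative phosphorylation were higher in 35 and lower in 9 of 77, with changes below 2-fold in all of the former. Uqcrh, a complex III subunit on chromosome 4, fell from 206, 184 and 172 to 75.7, 89.9 and 85.3 CPM. Of 13 mitochondrially encoded genes 5 were higher and 0 lower, or 7 and 0 without replicate 3 of Vcam1KO2. Only 1 passed without replicate 1 of Vcam1KO2, 5 passed without replicate 3 of Vcam1KO1, and 3 passed without any 1 of the other libraries. The level of mt-Cytb was 728, 309 and 662 CPM in the control and 2698, 1980 and 808 CPM in the clone, and replicate 2 of Vcam1ctrl and replicate 3 of Vcam1KO2 were the lowest of their groups. The call for mt-Cytb was lost without replicate 1 of Vcam1KO2 (edgeR adjusted p = 0.0603).

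Genes of chromosome 4 were shifted downward as a set and those of chromosome X upward. Over the 998 tested genes of chromosome 4 the median log2 fold change was -0.72, with 58.3% lower and 10.1% higher. Each of the 16 windows of 10 Mb of that chromosome, with 9 to 156 tested genes each, had a median below 0. Over the 528 tested genes of chromosome X the median was 0.60, with 51.3% higher and 16.7% lower. Windows of chromosome X were less even, from -4.94 at 110 to 120 Mb (6 tested genes) to 1.29 at 140 to 150 Mb (26 genes). The window at 170 to 180 Mb, with 1 gene, was also below 0, at -0.37. The medians of the other chromosomes ran from -0.26 on chromosome 8 to 0.37 on chromosome 1. By library, the median of chromosome 4 lay at -0.75, -0.69 and -0.72 and that of chromosome X at 0.62, 0.59 and 0.53 relative to the control mean, while control libraries stayed within 0.05 of 0 on every chromosome. Chromosome 4 was lower in Vcam1KO1 cells too, with a median of -0.56, but chromosome X was at 0.09 there. The number of copies of a chromosome was not measured, and its part in these results was not tested. Xist, the noncoding RNA of the inactive X chromosome, rose from 243, 208 and 280 to 504, 349 and 416 CPM (log2 fold change 0.79, edgeR adjusted p = 0.00423).

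**Figure D4:**
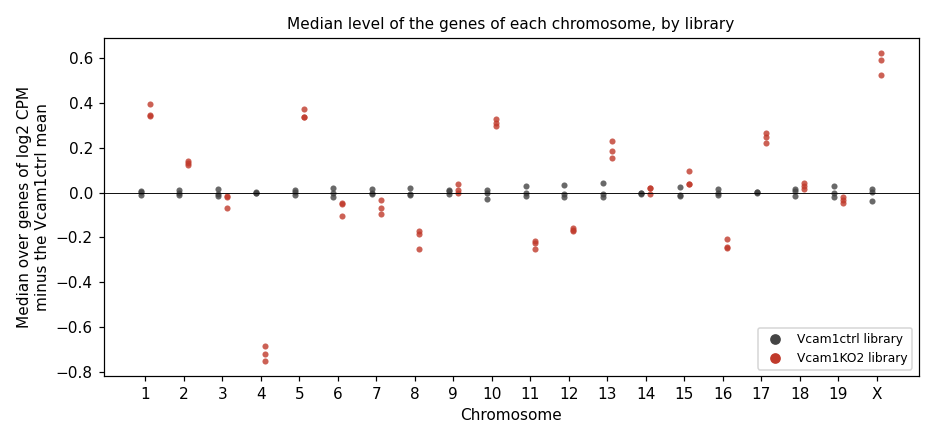
Median over the tested genes of each chromosome (x axis) of log2 CPM minus the mean of the control libraries (y axis), 1 grey point for each Vcam1ctrl library and 1 red point for each Vcam1KO2 library. The Vcam1KO2 libraries lie together at -0.75 to -0.69 on chromosome 4 and at 0.53 to 0.62 on chromosome X, and the control libraries lie near 0.

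Imprinted and Hox genes fell more often than they rose. Of 32 imprinted genes, which are read from 1 parental copy, 15 were lower and 5 higher. Their median log2 fold change was -0.67, or -0.24 with 9 members at their bounds. It ran from -0.80 to 0.02 over the alternatives. Igf2, whose rise is given above, was among those that were higher. Grb10, an adaptor that restrains insulin signals, fell from 167, 248 and 170 CPM to at most 2 counts, at least 4230-fold lower, and was at 10.8, 10.3 and 5.6 CPM in Vcam1KO1 cells (edgeR adjusted p = 4.99e-06 between clones). Of 18 Hox genes tested 10 were lower and 2 higher. The median of the Hox genes was -1.95 and ran from -2.86 to 0 over the alternatives. Over the genes with a mean of at least 1 CPM, 6 Hox genes passed in all. Hoxb13, the hindmost gene of its cluster, fell from 30.8, 29 and 39.9 to 0.103, 0.0424 and 0.0444 CPM. Of 58 ion and water channels 22 were higher and 27 lower. The water channel Aqp5 rose from 2.79, 3.1 and 3.63 to 108, 122 and 143 CPM (log2 fold change 5.30, edgeR adjusted p = 7.87e-08).

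Against the other clone 6826 genes differed (38.6%), 3262 higher and 3564 lower in Vcam1KO2 cells. With predicted genes and pseudogenes left out, 5919 genes called in Vcam1KO2 against Vcam1ctrl had at least 5 CPM in the higher group and no overlap between groups. Of these 5919, 822 also passed against Vcam1KO1 in the same direction and did not pass in Vcam1KO1 against Vcam1ctrl. Of the 822, 481 were higher and 341 lower. These comparisons share the Vcam1KO2 or the Vcam1ctrl libraries. A further 206 of the 5919 passed in opposite directions in the clones. The largest of the 481 were Tbx18, Tshz3, Plppr3, Rspo3, Clip4 and Cdhr1. Tbx18, a T-box factor of epicardium, ureter and mural cells, stood at 14.4, 11.1 and 9.19 CPM in Vcam1KO2 libraries, 0.0558, 0.0185 and 0 CPM in Vcam1ctrl libraries and 0.0749, 0.0626 and 0.112 CPM in Vcam1KO1 libraries. Tshz3, a zinc finger factor of ureter muscle and neurons, stood at 6.39, 5.94 and 6.2 CPM, with at most 3 counts in any library of the other groups. Plppr3, a phospholipid phosphatase-related membrane protein of neurites, was at 234, 224 and 159 CPM, against 2.64, 1.72 and 2.53 CPM in the control and 2.08, 1.16 and 3.1 CPM in the other clone. Clip4, a microtubule-binding protein, rose 61.2-fold and Cdhr1, a cadherin of photoreceptors, 58-fold over the control.

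The largest decreases of the same kind were Cpeb1, Tmem47, Epb41l4b, Npnt, Fhl1 and Cnnm1. Cpeb1, which controls the length of poly(A) tails, was at 8.21, 6.31 and 7.5 CPM in Vcam1ctrl and 6.93, 8.45 and 10.2 CPM in Vcam1KO1 libraries and had at most 2 counts in Vcam1KO2 libraries, at least 159-fold lower than the control. Tmem47, a junction-associated protein of the claudin superfamily, was at least 136-fold lower. Npnt, a basement membrane ligand of integrin alpha 8 beta 1, fell from 48.7, 50.9 and 68.4 to 0.257, 0.141 and 0.0592 CPM, with 14.1, 18.5 and 78.9 CPM in the other clone. Fhl1, a LIM protein of muscle, fell from 23.3, 14.6 and 41.1 to 0.428, 0.396 and 0.207 CPM, with 40.2, 37.8 and 33.8 CPM in the other clone. Epb41l4b and Cnnm1 fell to 0.225% and 2.57% of their control means. For each of these 12 genes no Vcam1KO2 library overlapped any library of the other groups.

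**Figure D5:**
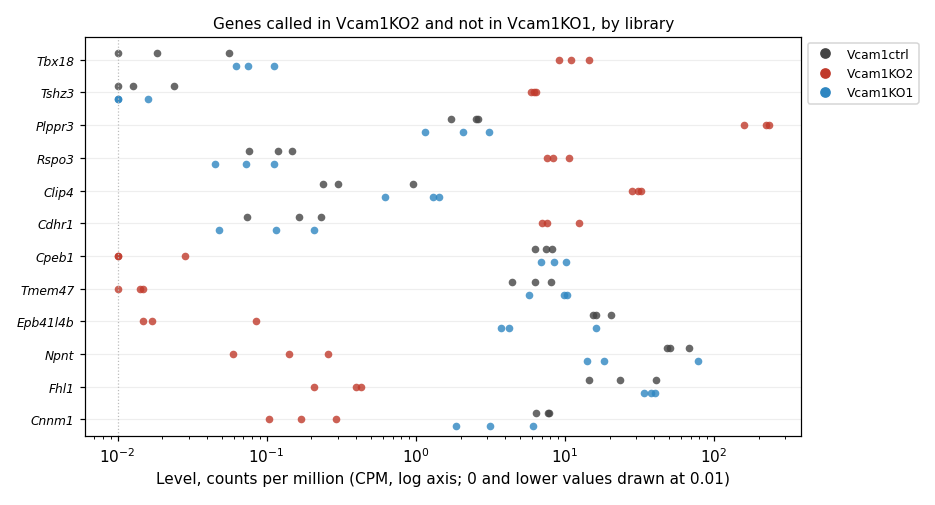
Level of 12 genes in each library (x axis, CPM on a log scale, with 0 and lower values drawn at 0.01), grey for Vcam1ctrl, red for Vcam1KO2 and blue for Vcam1KO1. The red points lie above both other groups for the 6 genes at the top and below them for the 6 at the bottom, which is what the choice of the genes requires.

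Some genes varied widely between passages of the clone. Of 31 immediate-early genes, which respond within minutes to growth factors and stress, 9 were lower and 0 higher, and 17 were more than 2-fold below both other Vcam1KO2 libraries in replicate 3. Without that library 6 were lower and 1 higher. In all, 5 passed without replicate 2 of Vcam1KO2, 5 without replicate 3 of Vcam1ctrl and 16 without replicate 3 of Vcam1KO1. Fos, a subunit of the AP-1 factor, was at 874, 338 and 1349 CPM in Vcam1ctrl and 86, 64.1 and 3.11 CPM in Vcam1KO2 libraries (log2 fold change -4.06, edgeR adjusted p = 0.019), a call lost without replicate 2 of Vcam1KO2 (edgeR adjusted p = 0.0528) and without replicate 3 of Vcam1ctrl (edgeR adjusted p = 0.0551). Nfkbia, the feedback inhibitor of NF-kappaB, was at 417, 252 and 31.2 CPM in the clone and at 494, 40.8 and 372 CPM in the control, with a low library in each group, and did not pass. Tnfaip3, another feedback inhibitor of NF-kappaB, was low in the same libraries at 341, 153 and 22.1 CPM and 361, 28.1 and 290 CPM. Of 41 genes of the unfolded protein and ATF4 response 14 were lowest in replicate 3 by the same measure. Asns, which makes asparagine, was at 330, 360 and 95.7 CPM and Trib3, an inhibitor of AKT, at 163, 205 and 35.5 CPM there, with 355, 538 and 316 CPM and 318, 591 and 334 CPM in the control. Slc7a11, the cystine importer, fell from 106, 117 and 128 to 45.2, 40.3 and 8.71 CPM, a call lost without replicate 3 of Vcam1ctrl (edgeR adjusted p = 0.0526). Culture density and time since feeding are not given in the labels used here.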

How the data were processed

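RNA was measured as poly(A)-selected, stranded, paired-end libraries of mouse PPTR cells, 3 each of Vcam1ctrl, Vcam1KO1 and Vcam1KO2, grouped by their genotype labels. The authors obtained estimated counts with kallisto (version 0.46.1, stranded mode with bias correction) on mouse GENCODE transcripts of GRCm38 and deposited them per gene symbol as whole numbers; a gene's estimate depends on how reads shared with paralogs or pseudogenes were divided. The authors' own tests used limma-voom after TMM scaling. Chromosome positions came from GENCODE annotation of the same build, which placed 53570 of 55276 symbols.

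Genes that passed edgeR's filterByExpr were TMM-scaled and tested by edgeR (version 4.0.16, R version 4.3.3) with robust quasi-likelihood fits on all 9 libraries, leaving 6 residual degrees of freedom, and Benjamini-Hochberg adjustment over all genes tested. Fold bounds set the mean of the higher group against 3 counts per library. Standard errors belong to the log2 fold change; ± values are SD. Estimated counts carry uncertainty from read assignment that the precision given by depth does not cover.

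Alternatives were limma-voom (limma version 3.58.1), DESeq2 (version 1.42.0), upper-quartile scaling, other filters, a fit on 6 libraries, a test against a 2-fold change and omission of each library. The test was tried on simulated data. Named genes were study genes, the 12 largest fitted fold changes each way at 5 CPM or more, 6 each way apart from Vcam1KO1, up to 4 abundant genes each way, and key genes and up to 3 called genes each way of 54 gene lists. Cell type markers such as Msln and Cd14, and the genes of neighbouring runs, were named after their values were seen. Members and lists were chosen with earlier results of these data known. Promoters came from RefSeq (GRCm38.p6). Python (version 3.11.15) with pandas (version 2.3.3), numpy (version 2.4.6) and matplotlib (version 3.10.9) made summaries and figures. No column of values was left out. Some genes that these rules name are not reported here.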

Additional observations from a re-analysis of the deposited data

Results flagged for a closer look

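The clones differed in 6826 of 17672 tested genes (38.6%). Of 192 tested genes named here, 102 were among them, 54 higher and 48 lower in Vcam1KO2 than in Vcam1KO1 cells. Some of the 192 were named because they differed between the clones, and others for large changes against the control. The naming rules thus partly fix the count of 102, which is no measure of how often genes differ. Each of the 102 passed edgeR's test of the difference between the clones. The values below are log2 levels in Vcam1KO2 minus Vcam1KO1 libraries. Where a clone had 3 counts or fewer in each library the value depends on a prior count and is no bound. This holds for F2rl1, Calml4, Fgfr4, Cpeb1, Tmem47, Grb10, Hoxb13 and Tshz3.

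Genes that passed in Vcam1KO2 and not in Vcam1KO1 cells are given first. Among transcription factors the difference was 9.97 for Tshz3, 7.13 for Tbx18, 5.39 for Wt1, -4.03 for Sox6, -1.70 for Snai2 and -2.53 for Epas1. In the Wnt pathway it was 6.83 for Rspo3, 3.74 for Axin2 and -1.42 for Lgr4. Other signals and receptors differed by 3.79 for Gdnf, 3.19 for Ccl2, 3.83 for Itgb2, 1.85 for Notch3, 1.66 for the inhibitor Timp1 and 1.14 for the collagen chain Col1a2. Membrane and cytoskeletal proteins differed by 6.62 for Plppr3, 6.17 for Cdhr1, 4.76 for Clip4, -9.52 for Tmem47, -7.59 for Epb41l4b, -6.76 for Fhl1, -7.95 for Npnt, -4.30 for Cnnm1 and -2.60 for Grip2. The remaining values were -9.50 for Cpeb1, 2.60 for Oasl2 and -0.97 for Uqcrh.

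Genes that rose in both clones rose further in Vcam1KO2 cells by 8.07 for Col6a5, 6.12 for Tmem255a, 3.43 for Itga9, 3.26 for Gpnmb, 3.07 for Tbx3, 2.29 for Nrcam, 1.85 for St8sia2, 1.38 for Foxf1, 1.01 for Lgals1, 0.76 for Lama4 and 0.49 for Lamp2. Immune genes and ligands of this kind differed by 2.80 for Ccl7, 2.54 for Gbp3, 1.51 for C3, 2.40 for Wnt10b, 1.04 for Inhbb, 1.65 for Afp and 0.97 for Bcl2. In Vcam1KO1 libraries Col6a5 had a mean of 0.055 CPM and at most 5 counts, close to the limit of detection. Tmem255a had a mean of 0.172 CPM and at most 14 counts there. Genes that fell in both clones fell further in Vcam1KO2 cells, with -9.04 for Grb10, -5.92 for Aldh1a1, -5.79 for Calml4, -4.39 for Pdlim1, -3.86 for Flt4 and -3.23 for Fgfr4. Smaller differences of this kind were -2.73 for Alb, -2.63 for F2rl1, -2.55 for Car9, -2.37 for Lsr, -1.92 for Sema4g, -1.58 for Acvrl1, -1.21 for Trp53inp1 and -0.97 for Tm7sf2.

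Matrix and mesenchymal genes were among those that rose less in Vcam1KO2 than in Vcam1KO1 cells. The values were -3.74 for Cxcl12, -2.72 for Acta2, -2.36 for Ogn, -2.32 for Col3a1, -1.31 for Adamts2, -1.30 for Col12a1, -0.86 for Lox, -0.85 for Col1a1 and -0.77 for Pdgfrb. Other genes that rose less differed by -5.25 for Plin4, -1.81 for Ldhb, -1.78 for Vgll3, -1.52 for L1cam, -1.50 for Tet1, -1.46 for Hp, -1.21 for Tgfb3, -1.20 for Itgb8, -0.96 for Abca1, -0.60 for Anxa6 and -0.52 for Cnn2. Epithelial genes that fell less differed by 4.79 for Foxa2, 2.13 for Lamb3, 1.60 for Krt8, 1.56 for Itgb4, 1.32 for Erbb3 and 0.81 for Itga3. The other genes that fell less differed by 6.85 for Areg, 5.25 for Hoxb13, 4.73 for Trib3, 4.70 for Slc7a11, 3.57 for Rbp4, 3.31 for Lcn2, 3.21 for Ccl20, 2.58 for Ccnd1, 2.47 for Oasl1, 2.44 for Slc16a3, 0.75 for Slc2a1 and 0.71 for Cdkn1a.

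Ccl8 and Ccnd2 moved in opposite directions in the clones, with differences of 6.31 and -2.14. Genes that passed in Vcam1KO1 and not in Vcam1KO2 cells differed by 4.41 for Dcn, 2.55 for Asns and -1.08 for Cdh2.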

How the results depend on the processing

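The count of genes called in Vcam1KO2 against Vcam1ctrl ran from 7190 to 9539 over the other tools, scalings and filters and the fit on 6 libraries, and from 7750 to 10199 when a library was left out. With a demand for a change beyond 2-fold it was 3690, since that test asks for more. The count between the clones ran from 4933 to 7615. The median of chromosome 4 was -0.7851 under upper-quartile scaling, which moved the median of all genes by -0.0647, and ran from -0.7569 to -0.7035 when a library was left out. The median of chromosome X was 0.5306 under upper-quartile scaling and ran from 0.5468 to 0.6196 when a library was left out. In an alternative chosen after the data were seen, leaving out libraries gave 124 to 145 lost and 5 to 12 gained genes, with 12 without replicate 1 of Vcam1ctrl, the deepest library. Of 182 named genes called, 171 kept the call under every alternative that gave a value and 11 lost it under at least 1 (Nuf2, Snai1, Snai2, Acta2, Fos, Trib3, Slc7a11, mt-Cytb, Ankrd1, Ccl2 and Ccl20).

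Of the 10 named genes that were not called, Vim passed without replicate 3 of Vcam1KO1 (edgeR adjusted p = 0.0334) and 5 changed sign. For Axl the log2 fold change was -0.0189 under upper-quartile scaling and ran from -0.1336 to 0.2117 when a library was left out. The same range was -0.5978 to 0.004 for Itga4, -0.0894 to 0.0747 for Itgb1, -1.1266 to 0.1742 for Nfkbia and -1.401 to 0.1086 for Tnfaip3. The cause was not tested. Of 54 gene lists, 11 had a median that changed sign under at least 1 alternative and 10 a count of calls that moved by over 1.5 times, mitosis (0 to 20), DNA replication (3 to 15), immediate-early (4 to 16) and mitochondrially encoded genes (1 to 7) among them. No paired analysis was possible because the labels give no replicate numbers that groups share. Depth limits statements on genes near 3 counts per library.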

Other observations

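Genes of axon guidance, several of which also steer epithelial and endothelial cells, were higher in 22 and lower in 20 of 60 tested members. Ntn1, which encodes the guidance cue netrin-1, rose from 8.88, 5.37 and 10.7 to 169, 172 and 154 CPM (log2 fold change 4.31, edgeR adjusted p = 1.14e-06), while its receptor gene Unc5c fell from 7.66, 5.91 and 2.83 to 0, 0.0141 and 0.103 CPM. The adhesion molecule Nrcam rose from 2.07, 1.88 and 0.443 to 31.8, 33.2 and 19.8 CPM, and the semaphorin Sema4g fell from 278, 140 and 566 to 6.05, 5.67 and 3.19 CPM. Of 37 genes of the YAP and TEAD pathway 12 were higher and 7 lower, 51.4% in all, where 51.3% of all tested genes passed. Vgll3, a cofactor of TEAD proteins, rose from 2.08, 2.23 and 0.746 to 40.4, 34.7 and 23.2 CPM (log2 fold change 4.28, edgeR adjusted p = 4.1e-05), and the target Ankrd1 fell from 468, 398 and 396 to 94.7, 76.8 and 60.8 CPM. Of 35 contractile and SRF target genes 12 were higher and 10 lower, with Cnn2, which encodes a calponin, rising from 81.3, 79.6 and 84.6 to 366, 403 and 373 CPM and Pdlim1, a cytoskeletal LIM protein, falling from 96.5, 113 and 95.9 to 0.703, 0.424 and 0.828 CPM.

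Hypoxia-response genes were lower in 14 and higher in 5 of 29. Car9, a carbonic anhydrase of hypoxic cells, fell from 0.765, 0.812 and 0.493 to 0.0685, 0.0141 and 0.0444 CPM (log2 fold change -4.01, edgeR adjusted p = 0.000113), and Epas1, which encodes HIF-2alpha, from 43.3, 31.5 and 56.4 to 9.03, 8.71 and 10.7 CPM. Of 23 S100 and annexin genes 12 were lower and 2 higher, with S100a14, an epithelial member, falling from 3.32, 4.54 and 2.82 to 0.0514, 0.0707 and 0.0444 CPM and Anxa6 rising from 152, 142 and 156 to 561, 613 and 556 CPM. Of 34 growth-arrest and apoptosis genes 8 were higher and 11 lower, 55.9% in all, where 51.3% of all tested genes passed. Bcl2, an inhibitor of apoptosis, rose from 9.47, 11.1 and 10.8 to 37.6, 35.5 and 32.7 CPM and Trp53inp1, a stress-induced gene, fell from 171, 159 and 170 to 25.4, 20.1 and 12.3 CPM. Of 27 DNA methylation and Polycomb enzymes 5 were higher and 5 lower, 37.0% in all, below the share of all tested genes. Tet1, which oxidizes methylated cytosine, rose from 0.0956, 0.24 and 0.24 to 1.83, 1.37 and 1.67 CPM (log2 fold change 3.13, edgeR adjusted p = 0.000108).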
